A study of Mus musculus with 20 samples.

Results

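The 35 genes described here encode enzymes of the citrate cycle, the proteins that bring pyruvate into it, the kinases and phosphatases that set the activity of the pyruvate dehydrogenase complex, and enzymes that refill or drain the cycle. They were taken by symbol from the deposited table of 25219 genes, and all 35 were found there. Whole inguinal white fat (iWAT) and brown fat (BAT) of male mice on a mixed C57Bl/6 background were sequenced 1 week after recombination, with 5 libraries of either genotype per tissue. In Ai-α4KO mice the floxed α4 gene (Igbp1, which encodes a protein that binds and protects phosphatase catalytic subunits) is removed in adipocytes by Adiponectin-CreERT2 after tamoxifen. Control mice, called WT in the labels, carried floxed α4 without the Cre transgene, and every mouse of both genotypes was given tamoxifen at 2 months of age. The promoter drives Cre in adipocytes, so the other cells of each fat pad keep α4, and the labels do not tie the iWAT and BAT libraries to individual mice.

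The citrate cycle oxidizes acetyl-CoA in the mitochondrial matrix and hands the electrons to the respiratory chain. Pyruvate reaches the matrix through the mitochondrial pyruvate carrier and becomes either acetyl-CoA, through the pyruvate dehydrogenase complex, or oxaloacetate, through pyruvate carboxylase. In white adipocytes the cycle also exports citrate for fatty acid synthesis and supplies carbon for glyceroneogenesis, while in brown adipocytes it feeds heat production.

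The libraries held between 24023371 and 50384446 counts. Igbp1 fell to 16% of Control in iWAT (log2 fold change -2.65, SE 0.094, adjusted p = 4.99e-08) and to 17.6% in BAT (-2.50, SE 0.169, adjusted p = 2.2e-07), by edgeR's quasi-likelihood test. Levels are given as CPM, counts scaled to library size after TMM normalization across the 20 libraries, or as FPKM, which also divides by transcript length and is used wherever genes are compared with each other. The summed CPM of 8 adipocyte markers, which were detected in every group, ran from 31200 to 44600 in Control and from 14700 to 22100 in Ai-α4KO iWAT, and from 27500 to 30900 and from 15400 to 19700 in BAT. The sum of the 5 macrophage markers found went the other way, from 1010 to 1680 and from 6540 to 8820 in iWAT, and from 201 to 454 and from 3840 to 6290 in BAT. Ucp1 and 5 other brown adipocyte markers summed to between 8300 and 12700 CPM in Control BAT and to between 134 and 994 CPM in Control iWAT. In Ai-α4KO they summed to between 1550 and 3590 CPM in BAT and to between 17.3 and 38.9 CPM in iWAT. Not all of them fell in BAT, where Dio2 and Elovl3 had log2 fold changes of 0.40 and 0.36. Some libraries stood apart: skeletal muscle markers summed to 7440 CPM in Control iWAT 4 and to 5890 CPM in the first Ai-α4KO iWAT library, against at most 192 in the other iWAT libraries. B cell markers reached 431 CPM in Control iWAT 1 and 171 CPM in Control iWAT 4, against at most 11.7 in the other iWAT libraries. T cell markers reached 156 CPM in Control iWAT 1 and 178 CPM in Control iWAT 4, against at most 45.6 in the others. In such whole-tissue RNA, fewer adipocytes and less of a transcript per adipocyte cannot be told apart.

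Most of the cycle and of its pyruvate supply fell in both tissues, and a small set of genes rose. Calling a gene changed took an adjusted p under 0.01 together with a change of 2-fold or more. In iWAT 26 of the 35 genes were lower in Ai-α4KO and 3 were higher (Pdk3, Got1 and Me2), where 10.7% of all 14604 genes tested were lower and 11.3% higher. The median log2 fold change of the 35 genes was -1.55, beside 0.0147 over all genes tested. In Ai-α4KO BAT 27 were lower and 4 were higher (Pdk3, Got1, Pdp1 and Got2), where 13.3% of all 14344 genes tested were lower and 18.2% higher, with medians of -1.47 and -0.032. The libraries of the genotypes were fully apart for 28 of the 35 genes in iWAT and 34 in BAT, and for 39% and 47.6% of all genes tested. Between tissues, 25 genes were lower in both, beside 7.71% of the 13975 genes tested in both, Got1 and Pdk3 were higher in both, beside 9.49%, and Idh1 and Pck2 passed both thresholds in neither. The estimates of all 35 genes had the same sign in iWAT and BAT, as did those of 79.5% of all genes. Without the iWAT libraries highest in muscle markers, or without those highest in B cell markers, the iWAT counts stayed at 26 lower and 3 higher.

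**Figure D1:**
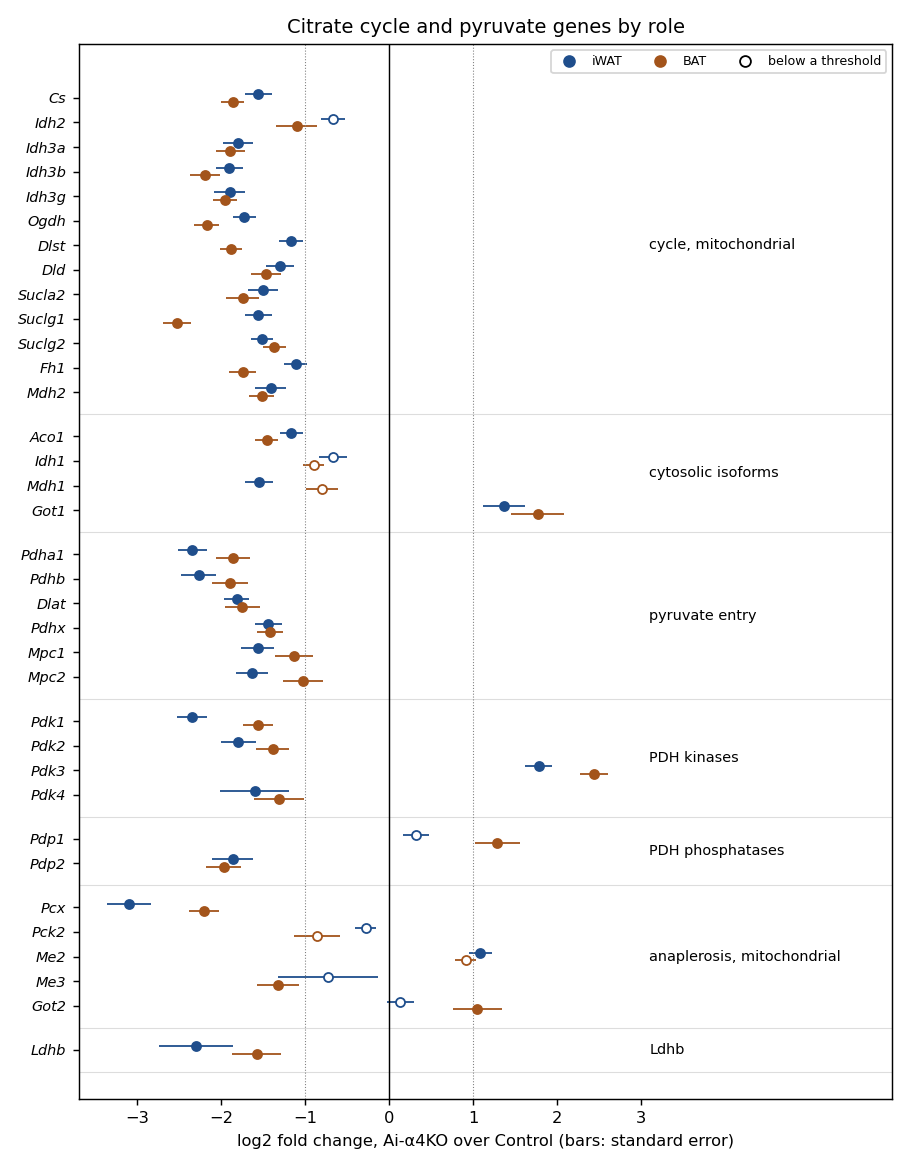
Log2 fold change of each of the 35 genes in Ai-α4KO over Control (x axis) in iWAT (blue) and BAT (brown), grouped by role, with standard errors as bars and 5 libraries per group. Open circles missed a threshold, dotted lines mark a fold change of 2, and most points lie to the left of 0 while Pdk3, Got1, Me2, Pdp1 and Got2 lie to the right in both tissues.

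The 13 cycle enzymes of the mitochondrial matrix fell together, with 12 lower in iWAT (median log2 fold change -1.52) and 13 lower in BAT (median -1.87), where 10.7% and 13.3% of all genes were lower. Citrate synthase (Cs), which condenses acetyl-CoA with oxaloacetate, was at 894, 1153, 1434, 942 and 990 CPM in the Control iWAT libraries and at 442, 375, 317, 392 and 318 CPM in the Ai-α4KO ones. The BAT libraries held 3291, 3376, 3334, 3281 and 3210 CPM in Control and 809, 773, 902, 1058 and 1094 CPM in Ai-α4KO. The genotypes were well apart in each tissue, and the Ai-α4KO iWAT level was 33.9% of Control (adjusted p = 1.57e-05) and the BAT level 27.4% (adjusted p = 3.94e-07).

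The 3 subunits of the NAD-linked isocitrate dehydrogenase moved alike. Idh3a, the catalytic subunit, had log2 fold changes of -1.80 in iWAT and -1.90 in BAT, Idh3b -1.91 and -2.2, and Idh3g -1.90 and -1.95 (adjusted p of at most 1.26e-05 for each). Idh3b was at 1612, 1742, 1706, 1682 and 1456 CPM in Control BAT and at 304.8, 270.7, 321, 500.7 and 430.5 CPM in Ai-α4KO BAT, which lie far apart. Within BAT the ratio of Idh3a to Idh3b was nonetheless higher by 0.31 on the log2 scale in Ai-α4KO (exact permutation test, two-sided, adjusted p = 0.036 over 34 ratios). The NADP-linked mitochondrial isoform Idh2 was least affected of the 13: its log2 fold change was -0.67 in iWAT (SE 0.14, adjusted p = 0.00197, below the fold threshold) and -1.10 in BAT (SE 0.244, adjusted p = 0.00196). The BAT call was lost in 6 of 21 alternatives, among them those without Ai-α4KO 1 or without Ai-α4KO 2 (-0.97 for each) and the one with a muscle marker score (adjusted p = 0.0142).

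The 2-oxoglutarate dehydrogenase complex fell in all 3 of its parts. Ogdh, its first component, was at 534, 679, 745, 552 and 568 CPM in Control iWAT and at 216, 162, 169, 211 and 174 in Ai-α4KO iWAT. The BAT values were 2525, 2281, 2898, 2547 and 2854 CPM in Control and 503, 523, 555, 713 and 686 in Ai-α4KO. No library of one genotype reached the range of the other, and the log2 fold changes were -1.73 (SE 0.137, adjusted p = 4.15e-06) and -2.17 (SE 0.151, adjusted p = 2.67e-07). Dlst, the succinyltransferase core, had -1.17 and -1.89, and Dld, the dehydrogenase shared with the pyruvate dehydrogenase complex, -1.31 and -1.47, all past both thresholds.

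Suclg1, the subunit common to both forms of succinyl-CoA ligase, had the lowest log2 fold change of the 35 genes in BAT. It was at 1802, 1616, 1615, 1488 and 1416 CPM in Control BAT and at 236.5, 217, 265, 382 and 308.5 CPM in Ai-α4KO BAT. Every Control library was at least several times above every Ai-α4KO library, with a log2 fold change of -2.53 (SE 0.17, adjusted p = 2.05e-07). In iWAT the change was -1.56 (SE 0.163, adjusted p = 1.92e-05). The subunits that set its nucleotide, Sucla2 for ADP and Suclg2 for GDP, had -1.50 and -1.52 in iWAT and -1.75 and -1.37 in BAT. Their ratio, Sucla2 over Suclg2, fell by 0.41 on the log2 scale in Ai-α4KO BAT (exact permutation test, two-sided, adjusted p = 0.0208) and moved by 0.04 in iWAT (adjusted p = 0.869). Fumarase (Fh1) had -1.12 in iWAT and -1.75 in BAT, and malate dehydrogenase (Mdh2) -1.41 and -1.52, each past both thresholds. The iWAT call of Fh1 was lost in 3 of 23 alternatives, where its smallest change was -0.95.

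All 6 genes of pyruvate entry were lower in both tissues, beside 7.71% of all genes. In iWAT the E1 subunits Pdha1 and Pdhb were among the lowest of the 35 genes. Pdha1, the regulated E1 alpha subunit that the kinases phosphorylate, was at 1001, 1640, 1914, 1239 and 1214 CPM in Control iWAT and at 306, 292.5, 252, 274 and 259.7 CPM in Ai-α4KO iWAT. Among BAT libraries Pdha1 was at 2951, 4485, 4024, 3011 and 2756 CPM in Control and at 780, 708, 1086, 1217 and 1051 CPM in Ai-α4KO. The lowest Control library lay far above the highest Ai-α4KO library in each tissue, and Pdha1 had log2 fold changes of -2.34 in iWAT (SE 0.177, adjusted p = 3.57e-06) and -1.86 in BAT (SE 0.2, adjusted p = 7.55e-06).

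Pdhb, the E1 beta subunit, changed by -2.27 and -1.89, and Dlat, the E2 acetyltransferase, by -1.82 and -1.75 on the log2 scale. Pdhx, which anchors Dld to the complex, had the smaller values of -1.44 and -1.42. Both carrier subunits fell, Mpc1 by 1.56 in iWAT and 1.13 in BAT and Mpc2 by 1.63 and 1.03 on the log2 scale. The BAT value of Mpc2 lay just past the fold threshold (adjusted p = 0.0025) and the call was lost in 9 of 21 alternatives. The BAT call of Mpc1 was lost in 4 of 21. The ratio of Mpc1 to Mpc2 differed by 0.12 in iWAT and -0.06 in BAT between genotypes (adjusted p = 0.675 for each, exact permutation test, two-sided).

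Among the 4 kinases that phosphorylate and switch off the complex, Pdk1, Pdk2 and Pdk4 were lower in both tissues and Pdk3 was higher in both. Pdk3, encoded on chromosome X from 93764616 to 93832095 (mm10), was at 9.21, 7.96, 7.21, 9.72 and 7.01 CPM in Control iWAT and at 21.6, 30.4, 35.3, 24.5 and 30.6 CPM in Ai-α4KO iWAT. In BAT it was at 3.05, 3.13, 2.54, 2.61 and 3.07 CPM in Control and at 14.3, 16.7, 21, 13.7 and 14.6 CPM in Ai-α4KO. Each Ai-α4KO library was above each Control library of its tissue, and Pdk3 rose 3.44-fold in iWAT (log2 fold change 1.78, SE 0.159, adjusted p = 7.82e-06) and 5.45-fold in BAT (2.45, SE 0.166, adjusted p = 2.25e-07). This was the highest log2 fold change of the 35 genes in each tissue.

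Pdk1 was at 109, 170, 163, 174 and 170 CPM in Control iWAT and at 41.1, 33.8, 27.6, 28.9 and 23.7 CPM in Ai-α4KO iWAT. That is a log2 fold change of -2.35 (SE 0.179, adjusted p = 3.75e-06), and in BAT it was -1.56 (SE 0.177, adjusted p = 1.13e-05). The BAT values of Pdk1 were 217.5, 253.8, 308, 222 and 242 CPM in Control and 68.8, 65.6, 85.8, 121 and 89.6 CPM in Ai-α4KO, again without overlap. Pdk2 ran from 118.9 to 161 CPM in Control iWAT against 28 to 61.5 CPM in Ai-α4KO, and from 315.9 to 436 CPM in Control BAT against 112.9 to 235.1 CPM in Ai-α4KO. For Pdk2 the iWAT log2 fold change was -1.80 (adjusted p = 3.09e-05) and the BAT value -1.39 (adjusted p = 7.74e-05). Pdk4, the isoform known to be induced by fasting, varied most between Control libraries, at 515, 630, 1019, 250.5 and 225 CPM in iWAT against 233, 110, 126.5, 161 and 239.6 CPM in Ai-α4KO. The iWAT groups overlapped, and the log2 fold change of -1.60 (SE 0.41, adjusted p = 0.00634) lost its call in 9 of 23 alternatives, 6 of them the removal of 1 library. In BAT, Pdk4 was at 2200, 3355, 2511, 3741 and 1866 CPM in Control and at 1028, 461, 1441, 1500 and 1211 CPM in Ai-α4KO. It changed there by -1.31 (SE 0.299, adjusted p = 0.00235) without overlap of the groups.

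**Figure D2:**
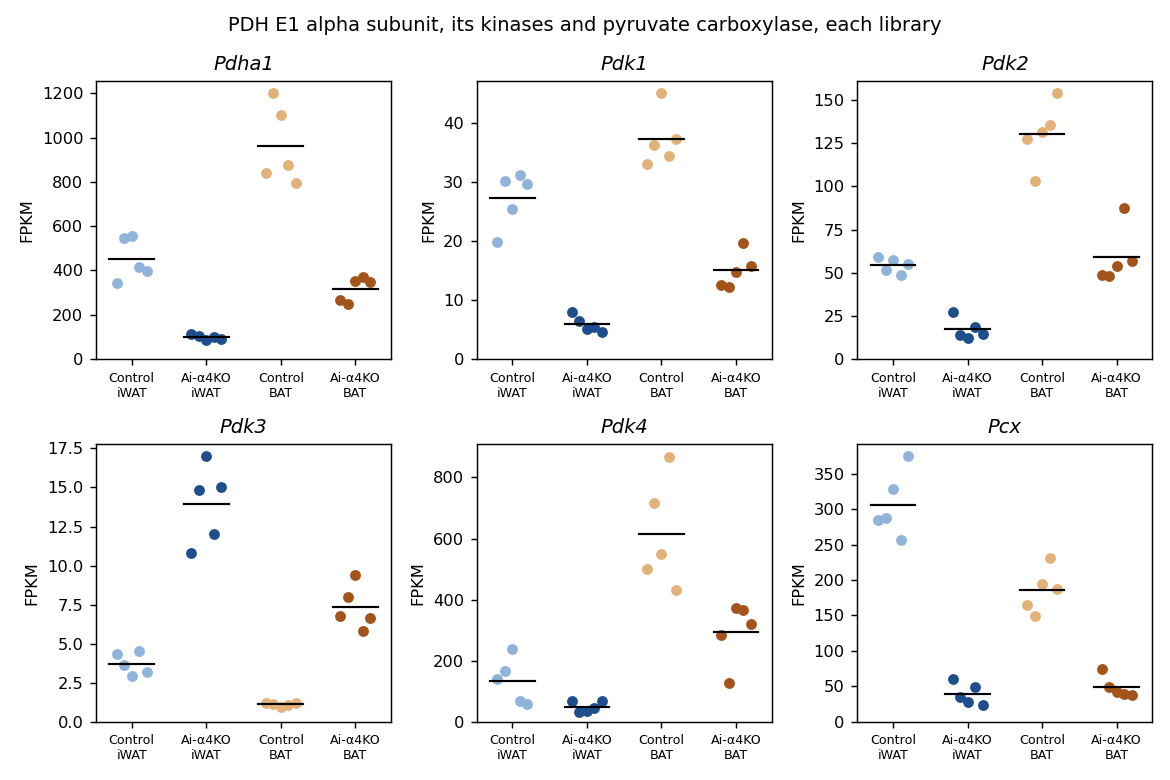
FPKM in each library (points) with the group mean (lines) for Pdha1, the 4 pyruvate dehydrogenase kinases and pyruvate carboxylase (Pcx), in the 4 groups of tissue and genotype. All but Pdk3 have lower means in Ai-α4KO, and Pdk3 reaches at most 17 FPKM in any library while Pdk4 is at 431 FPKM or more in each Control BAT library.

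Pdk4 remained the most abundant kinase transcript throughout. On the FPKM scale the 4 kinases summed to 220 ± 73.6 in Control and 86.5 ± 20.4 in Ai-α4KO iWAT, and to 782 ± 169 and 375 ± 111 in BAT (SD, n = 5 each). Pdk4 made up 57.4% ± 14.5 of this sum in iWAT of Control and 56% ± 7.77 of it in iWAT of Ai-α4KO mice, and 77.5% ± 6.17 and 77% ± 6.91 in BAT. The share of Pdk3 went from 1.88% ± 0.778 to 17.1% ± 6.14 in iWAT, and in BAT it went from 0.149% ± 0.0388 to 2.19% ± 1.1, with no overlap of the libraries in either tissue. In Ai-α4KO iWAT Pdk3 (13.9 ± 2.49 FPKM) thus stood above Pdk1 (5.87 ± 1.33 FPKM), whereas in Control iWAT Pdk1 (27.2 ± 4.7 FPKM) stood above Pdk3 (3.71 ± 0.706 FPKM).

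The kinases were also set against Pdha1 within each library, a ratio that does not depend on how libraries are scaled. The log2 ratio of Pdk3 to Pdha1 was higher in Ai-α4KO by 4.09 in iWAT and 4.29 in BAT (exact permutation test, two-sided, adjusted p = 0.0208 for each, adjusted over the 34 ratios). The iWAT ratio of Pdk1 to Pdha1 differed by -0.04 (adjusted p = 0.873) and the BAT ratio by 0.28 (adjusted p = 0.045, lost in 8 of 10 fits without 1 library, those without any library but Control 5 or Ai-α4KO 3). For Pdk2 the differences were 0.46 and 0.44 (adjusted p = 0.128 for each), and for Pdk4 0.86 and 0.49 (adjusted p = 0.128 and 0.211), by the same test. Pdk3 and Pdk1 therefore passed in BAT and Pdk3 in iWAT, and the other ratios did not pass.

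The phosphatases that switch the complex back on went different ways. Pdp2 was lower by 1.87 in iWAT (SE 0.242, adjusted p = 7.73e-05) and by 1.97 in BAT (SE 0.21, adjusted p = 6.98e-06) on the log2 scale. Pdp1, the calcium-sensitive isoform known from muscle, was at 12.0, 16.7, 15.8, 20.2 and 14.4 CPM in Control iWAT and at 17.6, 19.4, 19.4, 18 and 24.9 CPM in Ai-α4KO iWAT, which overlap (log2 fold change 0.32, adjusted p = 0.0952). In BAT it was at 15.2, 23.3, 20.2, 21.6 and 21.7 CPM in Control and at 26.8, 32.7, 53.7, 81.4 and 60.6 CPM in Ai-α4KO. These did not overlap, at a log2 fold change of 1.29 (SE 0.27, adjusted p = 0.00132), but the call was lost with a score of skeletal muscle markers in the fit (0.52, adjusted p = 0.212). As Pdha1 fell, the log2 ratio of Pdp1 to Pdha1 was higher by 2.64 in iWAT and 3.06 in BAT (exact permutation test, two-sided, adjusted p = 0.0208 for each).

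Pyruvate carboxylase (Pcx), which makes oxaloacetate from pyruvate, had the lowest log2 fold change of the 35 genes in iWAT. Pcx, on chromosome 19 from 4510472 to 4621752 (mm10), was at 1291, 1340, 1745, 1179 and 1775 CPM in Control iWAT and at 258, 154, 121, 216 and 105 CPM in Ai-α4KO iWAT. The BAT libraries had 896.5, 863, 1095, 1234 and 1001 CPM in Control and 334, 221, 202, 198 and 179 CPM in Ai-α4KO. The groups were far apart in both tissues, and Ai-α4KO libraries held 11.6% of the Control level in iWAT (log2 fold change -3.10, SE 0.265, adjusted p = 6.03e-06) and 21.7% in BAT (-2.21, SE 0.184, adjusted p = 9.81e-07). Pcx fell further than Pdha1 in iWAT, where the log2 ratio of the 2 genes dropped by 0.86 (exact permutation test, two-sided, adjusted p = 0.036, lost without any 1 Control library), while the BAT ratio differed by -0.36 (adjusted p = 0.453).

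The other mitochondrial enzymes that link the cycle to malate, phosphoenolpyruvate and aspartate did not move as a group. The NAD-linked malic enzyme Me2 was at 30, 25.1, 27.4, 32.5 and 33.4 CPM in Control iWAT and at 54, 48.8, 71.9, 65.7 and 76 CPM in Ai-α4KO iWAT, without overlap. This is a log2 fold change of 1.09 (SE 0.137, adjusted p = 6.51e-05), and in BAT it was 0.91 (SE 0.126, adjusted p = 5.9e-05), short of the fold threshold. Me3, the NADP-linked mitochondrial malic enzyme, was barely present in iWAT, with at most 4.06 CPM in any library, and changed there by -0.73 (SE 0.597, adjusted p = 0.323). In BAT it went from between 78.4 and 107 CPM in Control to between 22.4 and 59.1 CPM in Ai-α4KO (log2 fold change -1.32, SE 0.249, adjusted p = 0.000616), a call that was lost in one fit of all 20 libraries (adjusted p = 0.0138). Pck2, the mitochondrial phosphoenolpyruvate carboxykinase, did not pass, at -0.28 in iWAT (adjusted p = 0.0827) and -0.86 for BAT (adjusted p = 0.0163).

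Ldhb, the lactate dehydrogenase subunit that favours lactate oxidation, was at 312, 237, 298, 143 and 138 CPM in Control iWAT and at 61.2, 35, 20.6, 90.4 and 21.8 CPM in Ai-α4KO iWAT. The groups did not overlap, and the log2 fold change was -2.30 (SE 0.438, adjusted p = 0.00103), beside -1.58 in BAT (SE 0.292, adjusted p = 0.000537). Ldha, the partner subunit, had -0.89 in iWAT (adjusted p = 0.00195, below the fold threshold) and, among BAT libraries, -0.14 (adjusted p = 0.481). The log2 ratio of Ldha to Ldhb was higher in Ai-α4KO by 1.56 in iWAT (exact permutation test, two-sided, adjusted p = 0.045, lost without any 1 Control library) and by 1.51 in BAT (adjusted p = 0.0208).

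Stretches of 100 bases upstream of the start site are shown for Pcx, Pdk2 and Pdp2, which hold the E-box letters CACGTG, and for Pdk3, the gene with the highest fold change. These genes were picked after their values were seen. They come from the RefSeq promoter table (GRCm38.p6), run 5′ to 3′ on the strand of the gene, and have the E-box in capitals. The Pcx stretch is chr19:4510222-4510321 on the plus strand, that of Pdk2 chr11:95041445-95041544 on the minus strand, that of Pdp2 chr8:104591222-104591321 on the plus strand and that of Pdk3 chrX:93832301-93832400 on the minus strand.
Pcx: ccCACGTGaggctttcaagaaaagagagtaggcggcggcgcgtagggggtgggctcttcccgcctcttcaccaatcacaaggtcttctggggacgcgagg
Pdk2: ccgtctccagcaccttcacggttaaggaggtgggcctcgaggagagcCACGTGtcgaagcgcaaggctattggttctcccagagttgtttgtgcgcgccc
Pdp2: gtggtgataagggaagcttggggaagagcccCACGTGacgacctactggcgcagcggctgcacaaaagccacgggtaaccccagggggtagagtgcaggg
Pdk3: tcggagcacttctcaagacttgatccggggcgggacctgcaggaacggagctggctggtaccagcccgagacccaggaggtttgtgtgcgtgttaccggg

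Of the 35 genes, 32 matched the promoter table, and motifs were searched on both strands in the 250 bases before each start. The E-box was found for 4 of the 32 genes (Ogdh, Pcx, Pdk2 and Pdp2) and in 6.02% of all 32851 promoters. A gene with more than 1 start counts once among the genes and with each start among the promoters. The letters TGACGTCA, the cAMP response element, were found for Mdh2 and Ogdh and in 1.55% of all promoters. The letters TNAAGGTCA, an element of the estrogen-related receptors, were found for none of the 32 genes and in 1.14% of all promoters.

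Cytosolic isoforms were compared with their mitochondrial counterparts as ratios within each library. Aco1, the cytosolic aconitase that doubles as an iron sensor, had log2 fold changes of -1.17 (iWAT, adjusted p = 4.22e-05) and -1.46 (BAT, adjusted p = 2.89e-06), past both thresholds in each tissue. Its libraries ran from 359.9 to 466 CPM in Control and from 159.4 to 238.5 CPM in Ai-α4KO iWAT, and from 362 to 413.6 and from 120.4 to 196 CPM in BAT.

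Idh1 and Idh2, the NADP-linked isocitrate dehydrogenases, showed no shift in proportion that passed the test. Idh1 had log2 fold changes of -0.67 in iWAT (SE 0.165, adjusted p = 0.00519) and -0.90 in BAT (SE 0.127, adjusted p = 6.85e-05), below the fold threshold in both. It ran from 609 to 1176 CPM in Control and from 526.7 to 620 CPM in Ai-α4KO iWAT, which overlap, and from 715.5 to 861 and from 364 to 501 CPM in BAT, which do not. Idh2 ran from 118.8 to 169 CPM in Control and from 80.3 to 120.3 CPM in Ai-α4KO iWAT, and from 452 to 649.6 and from 168 to 421 CPM in BAT. The log2 ratio of Idh1 to Idh2 was 2.61 ± 0.44 in Control and 2.65 ± 0.307 in Ai-α4KO iWAT, and in BAT 0.50 ± 0.341 and 0.76 ± 0.708 (SD, n = 5 each), and neither ratio passed (exact permutation test, two-sided, adjusted p = 0.873 for iWAT and 0.54 for BAT). By FPKM, Idh1 was the most abundant of the 35 transcripts in Ai-α4KO iWAT, at 227 ± 14.4, where in Control iWAT Mdh1 led at 569 ± 90.1 (SD, n = 5 each), although Idh1 and Mdh1 (215 ± 33.7) lay within their spread in Ai-α4KO iWAT.

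Mdh1 and Mdh2, the malate dehydrogenases of the malate-aspartate shuttle, differed in their ratio between genotypes in BAT. Mdh1 fell by 1.55 in iWAT (SE 0.166, adjusted p = 2.17e-05) and by 0.80 in BAT (SE 0.195, adjusted p = 0.00349, below the fold threshold) on the log2 scale. It ran from 910.5 to 1606 CPM in Control and from 355 to 507 CPM in Ai-α4KO iWAT, and from 1752 to 2314 and from 818 to 1571 CPM in BAT. Mdh2 ran from 599.7 to 945 CPM in Control and from 214.6 to 372 CPM in Ai-α4KO iWAT, and from 1519 to 1851 and from 482 to 745 CPM in BAT. Neither gene's groups overlapped in either tissue. The log2 ratio of Mdh1 to Mdh2 differed by -0.11 between genotypes in iWAT (exact permutation test, two-sided, adjusted p = 0.519) and was 0.69 higher in Ai-α4KO BAT (adjusted p = 0.0208). With the muscle marker score in the fit, the BAT log2 fold changes were -1.15 for Mdh1 (adjusted p = 0.00571) and -1.605 for Mdh2 (adjusted p = 0.000153), closer together than the -0.80 and -1.52 without it, and the ratio was not tested with the score.

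Got1, the cytosolic aspartate aminotransferase of the same shuttle, rose in both tissues. It was at 21, 10.4, 14.9, 25.9 and 10 CPM in Control iWAT and at 52, 39, 44.3, 39 and 39.6 CPM in Ai-α4KO iWAT. Among BAT libraries Got1 was at 28, 84.1, 66.5, 68.5 and 87.8 CPM in Control and at 141, 167.5, 230.3, 344 and 289 CPM in Ai-α4KO. The groups did not overlap in either tissue, and the log2 fold changes were 1.37 (SE 0.255, adjusted p = 0.0009) and 1.77 (SE 0.316, adjusted p = 0.000412). With a score of skeletal muscle markers in the fit, the BAT value went to 0.62 (adjusted p = 0.0159) and the call was lost.

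Got2, its mitochondrial counterpart, overlapped in iWAT, from 37.7 to 64.9 CPM in Control and from 48.8 to 65 CPM in Ai-α4KO (log2 fold change 0.13, adjusted p = 0.507). In BAT Got2 ran from 50.1 to 134 CPM in Control and from 136 to 332 CPM in Ai-α4KO, a log2 fold change of 1.05 (SE 0.295, adjusted p = 0.00806) that was lost in 7 of 10 fits without 1 library, those without Control 1, 2, 3 or 4 or Ai-α4KO 3, 4 or 5. It was also lost with the muscle score, at -0.03 (adjusted p = 0.929). The log2 ratio of Got1 to Got2 was higher in Ai-α4KO by 1.30 in iWAT and by 0.75 in BAT (exact permutation test, two-sided, adjusted p = 0.0208 for each).

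Pck1 and Me1 are cytosolic enzymes of glyceroneogenesis and NADPH supply, and Pck1 fell further than its mitochondrial counterpart in both tissues. Pck1 changed by -3.42 in iWAT and -2.91 in BAT, and the log2 ratio of Pck1 to Pck2 fell by 3.08 and 2.24 (exact permutation test, two-sided, adjusted p = 0.0208 for each). For Me1 over Me3 the ratio fell by 2.15 in iWAT (adjusted p = 0.045, lost without any 1 Control library), where Me3 was low, and differed by -0.35 in BAT (adjusted p = 0.54). Over all 17 ratios, 8 passed an adjusted p of 0.05 in iWAT, 5 of them higher in Ai-α4KO, and 10 passed in BAT, 8 of them higher.

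**Figure D3:**
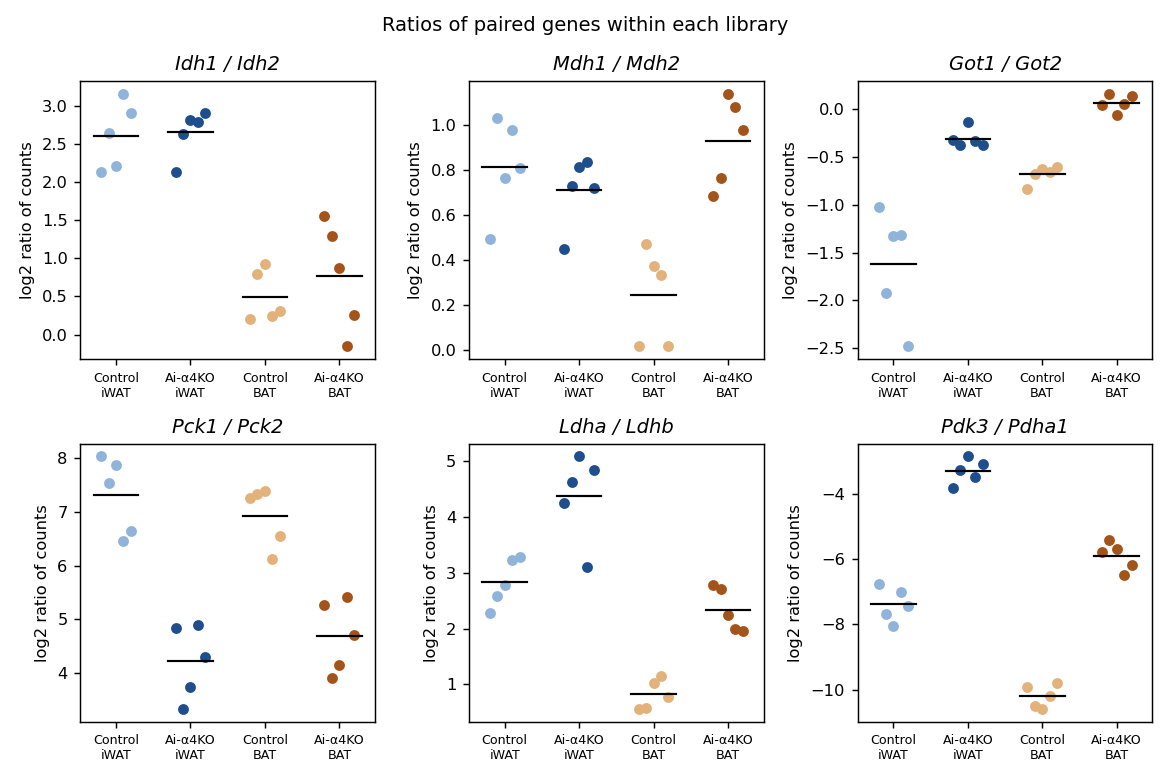
Log2 ratio of counts of 2 genes in each library (points) with the group mean (lines), for 4 pairs of cytosolic over mitochondrial isoforms, for Ldha over Ldhb and for Pdk3 over Pdha1, in the 4 groups. Got1 over Got2 and Pdk3 over Pdha1 are higher in every Ai-α4KO library than in the Control libraries of the same tissue, Pck1 over Pck2 is lower, and Idh1 over Idh2 overlaps.

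In BAT the genes called higher, except Pdk3, moved with skeletal muscle markers. The summed CPM of 9 such markers, all of them detected, was 1000, 9990, 5980, 5830 and 11100 in the Control BAT libraries and 15100, 16400, 27200, 48100 and 27800 in the Ai-α4KO BAT libraries, and 6 of the 9 were called higher. Ai-α4KO BAT 4 had the highest muscle sum and the highest Got1, Got2 and Pdp1, and Control BAT 1 had the lowest sum and the lowest of each. Pdk3 was at 13.7 CPM in Ai-α4KO BAT 4, its lowest Ai-α4KO value.

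When the edgeR fit was given a muscle marker score as covariate, the number of higher genes in BAT went from 4 to 1, and the number of lower genes from 27 to 26. Among all genes the share called higher went from 18.2% to 11.8% and the share called lower from 13.3% to 11.1%. The muscle sums of the genotypes did not overlap in BAT, so this fit cannot fully separate muscle content from genotype there. Pdk3 kept its log2 fold change, at 2.46 (SE 0.258, adjusted p = 2.14e-05). Me2, at 0.91 and short of the fold threshold without the score, had 0.84 with it (SE 0.197, adjusted p = 0.0047). Besides Got1, whose value is given above, Pdp1 lost its call, at 0.52 (SE 0.319, adjusted p = 0.212), as did Got2, at -0.03 (SE 0.192, adjusted p = 0.929). Mdh1 passed both thresholds in this fit, at -1.15 (SE 0.278, adjusted p = 0.00571), and Idh2 and Mpc2 missed the adjusted p, with lower log2 fold changes and larger SEs (-1.32, SE 0.376, adjusted p = 0.0142, and -1.24, SE 0.367, adjusted p = 0.0173). In iWAT the covariate left 26 lower and 3 higher.

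**Figure D4:**
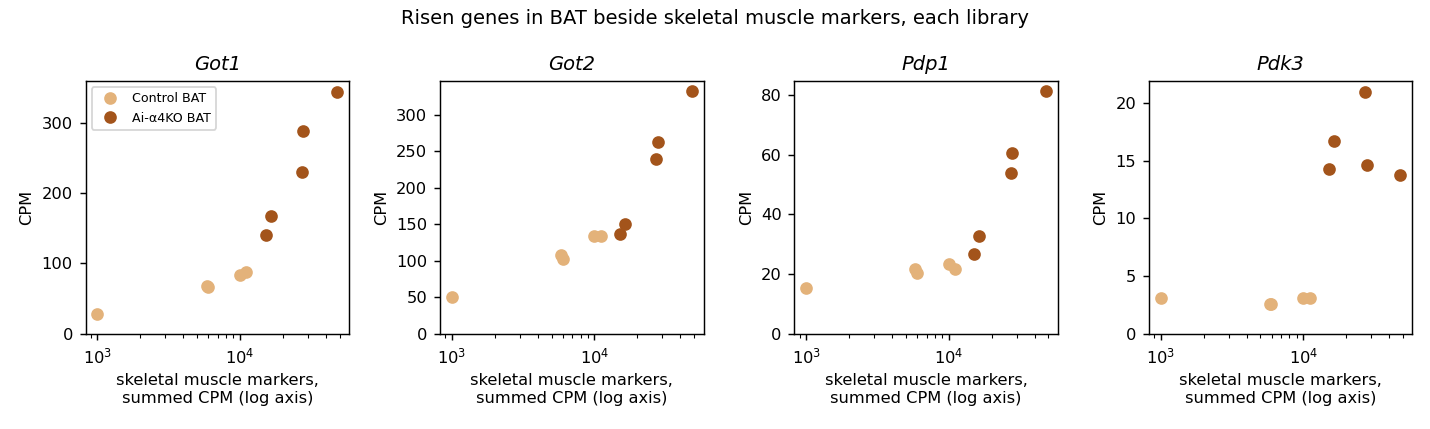
CPM of Got1, Got2, Pdp1 and Pdk3 (y axis) against the summed CPM of 9 skeletal muscle markers (x axis, log scale) in the 5 Control (light) and 5 Ai-α4KO (dark) BAT libraries. The first 3 genes are highest in the Ai-α4KO library of the highest muscle sum and lowest in the Control library of the lowest, while Pdk3 is lowest among Ai-α4KO libraries where the muscle sum is highest.

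Since adipocyte markers also fell, the same counts were rescaled so that the mean log2 level of the 8 adipocyte markers was equal in all libraries. On this scale the median log2 change of all genes tested was 1.70 in iWAT and 1.51 in BAT, so a change is read against these values. The 35 genes had medians of 0.13 and 0.055, so their median change was close to that of the markers. In iWAT Pcx alone fell further than the markers past both thresholds, at -1.50, as were 0.705% of all genes, and 7 genes were higher (Pdk3, Got1, Me2, Pdp1, Got2, Pck2 and Idh1), as were 74.2% of all genes. In BAT none was lower past both thresholds, beside 1.01% of all genes. Suclg1 (-0.97, adjusted p = 0.0042) and Pcx (-0.71, adjusted p = 0.00782) were lower there at the adjusted p alone, as were 1.27% of all genes. The 8 markers differed among themselves on this scale. Their lowest and highest changes were -0.592 and 0.964 for iWAT, above the -1.50 of Pcx, and -1.04 and 1.12 for BAT. In BAT 1 marker was called lower and 1 higher. Suclg1 and Pcx lay inside the BAT range, so neither was shown to fall further than the markers in BAT. There 5 were higher (Pdk3, Pdp1, Me2, Got1 and Got2), as were 71.3% of all genes. Pdk3 changed by 3.52 in iWAT and 3.98 in BAT on this log2 scale, above the medians of all genes. Macrophage markers had higher medians, 4.21 in iWAT and 5.53 in BAT, as had neutrophil markers, 4.26 and 5.41. The other lists of cell markers had medians below the Pdk3 values. Cell composition was not measured, and its part in these changes was not tested.

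Most of the 35 genes were higher in brown than in white fat of Control mice. Control BAT was higher than Control iWAT for 24 of them, where 7.22% of 14260 genes tested were higher, and lower for Pdk3 and Me2, where 14.7% were lower. The median log2 difference was 1.28, beside -0.0121 over all genes tested. Me3 differed most, at 5.30 (SE 0.366, adjusted p = 3.51e-06), followed by Suclg1 at 2.66, Ldhb at 2.41 and Pdk4 at 2.33. Pcx was one of the exceptions, with -0.56 (SE 0.158, adjusted p = 0.0116), and Aco1, Idh1, Pck2 and Pdp1 did not pass the adjusted p either. By FPKM, Pdhb (1121 ± 281), Mdh2 (1024 ± 79.5), Sucla2 (984 ± 43.7), Pdha1 (963 ± 178) and Cs (905 ± 18.9) led in Control BAT (SD, n = 5 each), and neighbours in this order differed by less than the larger of their SDs.

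In Ai-α4KO mice 28 genes were higher in BAT than in iWAT, where 8.4% of 14703 genes tested were higher, and Me2 was lower, where 3.09% were lower. These comparisons share libraries with those of genotype. Muscle marker sums also differed between tissues, with medians of 5980 CPM in Control BAT and 131 in Control iWAT, and of 27200 and 92.5 in Ai-α4KO. Got1 (2.51), Got2 (2.14) and Pdp1 (1.42) were among the 28 genes. The part of muscle RNA in these tissue differences was not tested. When the genotype effect itself was compared between tissues, none of the 35 genes differed at an adjusted p below 0.01 in edgeR's interaction test, where 4.86% of 15230 genes did. At an unadjusted p below 0.05 there were 10 of the 35, beside 31% of all genes. DESeq2 called 3, beside 10.8% of all genes, and limma called 1 on log2(FPKM + 1) and 1 on log2(FPKM + 0.1), beside 3.45% and 4.02%. At an adjusted p below 0.05 edgeR gave 6 genes, beside 15.1% of all genes, so the 35 genes held about the share found among all genes. The lowest adjusted p values of the 35 were those of Suclg1 (-0.94, adjusted p = 0.0115) and Dlst (-0.69, adjusted p = 0.0173).

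Of 22 other genes of the pathway, 21 were tested in iWAT, with 12 lower and 1 higher, beside 10.7% lower and 11.3% higher among all genes. In BAT 11 of the 22 were lower and 4 higher, beside 13.3% and 18.2% of all genes, so the higher genes were no more frequent than among all genes. The succinate dehydrogenase subunit Sdha changed by -1.88 and -1.71, and the citrate carrier Slc25a1 by -3.19 and -2.54. Acly, which splits exported citrate for lipid synthesis, changed by -3.36 and -3.03 (all with adjusted p of at most 4.15e-05). The aspartate-glutamate carrier Slc25a13 was the one gene higher in both, with log2 fold changes of 2.25 (iWAT, adjusted p = 5.9e-06) and 2.81 (BAT, adjusted p = 0.000131), from a low level of at most 1.64 CPM in any Control library. Its muscle-rich relative Slc25a12 had 0.97 (iWAT, adjusted p = 0.0188) and 1.93 (BAT, adjusted p = 0.00183) with its highest value, 227.9 CPM, again in Ai-α4KO BAT 4.

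Of 14 regulators of mitochondrial genes, 5 were lower and 1 higher in each tissue, beside 10.7% lower and 11.3% higher among all genes in iWAT and 13.3% and 18.2% in BAT. Ppargc1b, a coactivator of these genes, had -1.81 in iWAT (adjusted p = 5.33e-05) and, among BAT libraries, -2.75 (adjusted p = 3.38e-06). Its relative Ppargc1a fell to 25% of Control in iWAT (adjusted p = 3.52e-05) and had a log2 fold change of -0.15 in BAT (adjusted p = 0.642), a difference that passed the interaction test (1.89, adjusted p = 0.00266). The nuclear receptor Esrra, which acts with them on cycle genes, changed by -1.44 in BAT (adjusted p = 7.17e-06) and by -0.996 in iWAT (adjusted p = 0.000686, just below the fold threshold). Hif1a, a regulator of the response to low oxygen, was higher in iWAT at 1.55 (adjusted p = 3.15e-05) and at 0.99 in BAT (adjusted p = 0.000192, below the fold threshold).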

How the data were processed

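Stranded mRNA libraries were made from iWAT and BAT of both genotypes. The submitters' processing notes name bcl2fastq 2, STAR 2.5.3a and mm10; the counting tool, annotation release and normalization are not given in the sources used here. The authors deposited expected counts, estimated reads per gene without normalization, and the deposited FPKM divide these by transcript width and a library total.

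Expected counts were rounded and analysed with edgeR 4.0.16 in R 4.3.3 (filterByExpr, TMM, quasi-likelihood test within each tissue without covariates, Benjamini-Hochberg over all genes tested). Changed meant an adjusted p under 0.01 together with a change of 2-fold or more. CPM used TMM factors over all 20 libraries. The interaction was fitted on all 20 libraries with no fold threshold. Log2 ratios of 2 genes (0.5 added to each count) were compared by exact permutation over 252 arrangements and adjusted over 34 tests. Nothing states that libraries of a group came from separate mice, so p-values measure the spread between these libraries. The genes, lists and pairs were chosen with earlier results of these data known. Named were all 35 genes, Igbp1 and genes of the lists and pairs, with library values or their range for the isoform, kinase and carboxylase comparisons and library values for the 3 lowest and 3 highest fold changes of each tissue. The promoter motifs, and the library values of further genes such as Cs and Ogdh, were chosen after their values were seen. On simulated data with 200 changed genes the edgeR test recovered 181 (iWAT, 14329 genes, 0 false calls) and 185 (BAT, 13802 genes, 1 false call).

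Replicate numbers in the labels are shared between groups. Same-numbered libraries did not deviate together (correlations of deviations from -0.451 to 0.244), so they were not treated as pairs.

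Alternatives were DESeq2 1.42.0, no TMM factors, upper-quartile factors, no filter, a minimum of 10 counts in each library, other thresholds, limma 3.58.1 on log2(FPKM + 1) and log2(FPKM + 0.1), a replicate block, one fit of all libraries, marker scores as covariates, a shorter adipocyte marker list, another added count or FPKM in the ratios, and each library left out. Leaving out libraries high in muscle or B cell markers was added after seeing the data. In the marker lists, Adgre1 and Trac were not matched in the table. Amino acid sequences were not used here. One gene among the pairs and the pathway list, which stays in their counts, is not reported here.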

Additional observations from a re-analysis of the deposited data

Results flagged for a closer look

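Within each group of 5 libraries, the library farthest from its neighbours was compared with Dixon's critical value of 0.71 for the 35 genes. Of 140 groups tested 8 passed, and chance gives about 1 in 20. Dixon's ratio, the gap over the range of log2 CPM, was 0.866 for Pdk1 in Control iWAT 1 (lowest) and 0.745 for Mdh2 in Control iWAT 3 (highest). It was 0.725 for Pdp1 in Ai-α4KO iWAT 5 (highest) and 0.719 for Sucla2 in Control BAT 4 (lowest). In Ai-α4KO iWAT 1, whose skeletal muscle markers summed to 5890 CPM, Idh2 (0.817) and Got2 (0.815) were highest. In Control BAT 1, which had the lowest muscle sum of the BAT libraries at 1000 CPM, Got1 (0.757) and Got2 (0.726) were lowest. The part of muscle RNA in these values was not tested beyond the covariate fit given above.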

How the results depend on the processing

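Of the member fold changes recomputed under the alternatives, 1492 kept their direction and their side of the thresholds, 42 lost a call, 5 gained one and 1 reversed. The reversed one was Got2 in BAT with the muscle score (-0.02594), the fit in which 1 gene was higher in BAT. Leaving out 1 library at a time gave 25 to 26 lower genes and 3 higher ones in iWAT, and 25 to 27 lower and 3 to 4 higher ones in BAT. Calls lost this way were Pdk4 in iWAT without Control 1, 2 or 3 or Ai-α4KO 2, 3 or 4 (adjusted p of 0.01 to 0.0197), Idh2 in BAT without Ai-α4KO 1 or 2 (-0.97 for each), Mpc2 in BAT without Control 3 or Ai-α4KO 1 or 2 (-0.99 to -0.89) and Got2 in BAT without any library but Control 5, Ai-α4KO 1 or Ai-α4KO 2 (adjusted p of 0.0111 to 0.0199), while Pck2 in BAT was called without Control 3 (-1.02, adjusted p = 0.00571). Genes whose effect differed between tissues numbered 3 with DESeq2, 6 at an adjusted p below 0.05, 1 with limma on either FPKM scale, and 0 to 2 with a library left out (2 without Control iWAT 3 or Ai-α4KO iWAT 1, 1 without Ai-α4KO BAT 1 or 4). Genes lower in Control BAT than Control iWAT numbered 1 without the libraries of high B cell markers, and those lower in Ai-α4KO BAT than Ai-α4KO iWAT 2 with no fold threshold. Relative to adipocyte markers, 1 to 2 genes were lower in iWAT (2 without Control 5) and 0 to 1 in BAT (1 without Control 5, Ai-α4KO 4 or Ai-α4KO 5) with a library left out, and 1 in BAT with the replicate block. The block gave 25 lower and 3 higher in iWAT, where Pdk4 lost its call (adjusted p = 0.0379), 27 lower and 4 higher in BAT and 0 in the interaction. No paired version of the ratio tests was run, since 5 pairs cannot pass the threshold.

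Ratios that passed numbered 5 to 8 in iWAT (5 without any 1 Control library, when Me1 over Me3, Pcx over Pdha1 and Ldha over Ldhb were lost) and 9 to 11 in BAT. Near 0, ratios changed sign with a library left out: Idh1 over Idh2 (-0.078 to 0.18), Pdk1 over Pdha1 (-0.14 to 0.035), Sucla2 over Suclg2 (-0.054 to 0.10) and Mpc1 over Mpc2 (-0.053 to 0.26) in iWAT, and Pdp2 over Pdha1 (-0.35 to 0.085) and Mpc1 over Mpc2 (-0.12 to 3.178e-05) in BAT. Without TMM factors the median of all genes shifted to 0.134 in iWAT and 0.232 in BAT and that of the 35 genes to -1.42 and -1.22. Fh1 in iWAT and Idh2, Mpc1 and Mpc2 in BAT then lost their calls, and with upper-quartile factors Me2 did in iWAT. The cause was not tested. Me3 in iWAT rested on 14 to 116 counts per library and had an SE of 0.597.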
